A study of Homo sapiens with 4 samples.

Results

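The genes described here are 39 genes of DNA replication and of the supply of nucleotides to it, among the 25992 gene names on the array. They were chosen by name, with levels on these arrays already known: the subunits of the MCM2-7 helicase, the factors that license and fire origins (ORC1, ORC6, CDC6, CDT1, MCM10 and CDC45), the GINS complex, the sliding clamp PCNA and its loader RFC, the replicative polymerases and primase, FEN1 and LIG1, the nucleotide enzymes RRM1, RRM2, TYMS and TK1, the methylation maintenance factors UHRF1 and DNMT1, and the transcription factor E2F1. All 39 are on the array. Because the choice drew on these 4 arrays, their levels and differences are given as a description.

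RNA came from human proximal tubular cells (HPTCs) of 2 lines. HK-2 is a proximal tubular line immortalised with papillomavirus E6 and E7 genes, and RPTEC/TERT1 is one immortalised with the catalytic subunit of telomerase. All cells had been without serum and supplements for 24 h and then received IL-1β (10 ng/mL) together with the SGLT2 inhibitor empagliflozin (Empa, 500 nM) for 24 h. Each line has 2 arrays, which the methods call biological duplicates. Neither control cells nor cells given IL-1β without Empa were analysed here, and no value below is an effect of IL-1β or of Empa.

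Before a cell copies its DNA, the origin recognition complex, CDC6 and CDT1 load MCM2-7 rings onto origins. CDC45 and GINS then turn the rings into active helicases, polymerases build the strands on the PCNA clamp, and FEN1 and LIG1 join the lagging strand. Most of these genes are known targets of E2F transcription factors, which pocket proteins of the RB family hold in check in resting cells, and their transcripts are known to build up as cells enter S phase.

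A level is the log2 of the processed spot signal over the 75th percentile of the array, so a level of 0 equals that percentile and a difference of 1 is a 2-fold difference. Levels stop at a floor of -5.37, below which at least 1 array had no signal well above background, and a fold against an array on which a gene was not well above background is a lower bound. Because probes differ in brightness, levels are compared between arrays and not between genes. In RNA of whole cultures, fewer replicating cells and less of a transcript per cell cannot be told apart.

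The promoters of the members are shown here as a description of sequence, and their part in the levels was not tested. Of the 39 members, 35 had a promoter window in the RefSeq table of GRCh38.p14, which spans 250 bases before to 50 bases after the annotated start. GINS4, MCM4, MCM5 and POLD3 were not in that table. Each window was searched on both strands for 4 forms of the E2F site (TTTCCCGC, TTTGGCGC, TTTCGCGC and TTTGCCGC), for the CCAAT box (CCAAT) and for the CHR element (TTTGAA). The windows below, at least 1 from each complex, lie before the start. They run 5′ to 3′ on the strand of the gene, and the capitals mark an E2F sequence or a CCAAT box on either strand.
E2F1, chr20:33686386-33686438, minus strand: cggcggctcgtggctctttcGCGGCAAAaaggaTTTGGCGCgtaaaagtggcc
MCM6, chr2:135876506-135876615, minus strand: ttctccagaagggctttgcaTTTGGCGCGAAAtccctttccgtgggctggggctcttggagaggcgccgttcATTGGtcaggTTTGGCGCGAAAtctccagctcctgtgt
MCM3, chr6:52284889-52284936, minus strand: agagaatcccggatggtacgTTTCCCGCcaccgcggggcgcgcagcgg
CDT1, chr16:88803734-88803781, plus strand: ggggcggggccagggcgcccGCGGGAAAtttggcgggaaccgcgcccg
GINS2, chr16:85688958-85689005, minus strand: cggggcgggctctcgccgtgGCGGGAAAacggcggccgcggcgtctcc
PCNA, chr20:5126654-5126701, minus strand: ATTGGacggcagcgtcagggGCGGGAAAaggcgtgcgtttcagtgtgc
RFC3, chr13:33818074-33818121, plus strand: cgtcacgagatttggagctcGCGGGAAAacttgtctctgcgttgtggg
POLA1, chrX:24693761-24693808, plus strand: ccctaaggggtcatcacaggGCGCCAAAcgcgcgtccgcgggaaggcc
LIG1, chr19:48170431-48170478, minus strand: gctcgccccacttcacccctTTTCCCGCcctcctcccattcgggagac
TYMS, chr18:657594-657641, plus strand: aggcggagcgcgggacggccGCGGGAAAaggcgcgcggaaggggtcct
UHRF1, chr19:4909467-4909500, plus strand: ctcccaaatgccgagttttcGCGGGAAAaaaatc

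An E2F sequence was found in the window of 20 of the 35 members (57.1%), against 1090 of 27305 genes in the whole table (3.99%). A window can hold overlapping matches, as in MCM6, where TTTGGCGCGAAA reads as an E2F sequence on each strand and occurs at 2 places. The CCAAT box was in the window of 21 members (60%), against 39.7% of all genes. The CHR element was in the window of 1 member (2.86%), against 18.2% of all genes. The members' windows were also richer in G and C, with a median of 66.7% over 46 windows against 58.7% over 35116, and the part of this in the E2F count was not tested. Among the neighbouring lists, 31.4% of 35 other replication genes and 11.1% of 27 other nucleotide enzymes had an E2F sequence. So did 36.4% of 11 E2F and pocket protein genes, and none of 15 proximal tubule markers had one. A match is a description of letters and not evidence of binding.

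**Figure D1:**
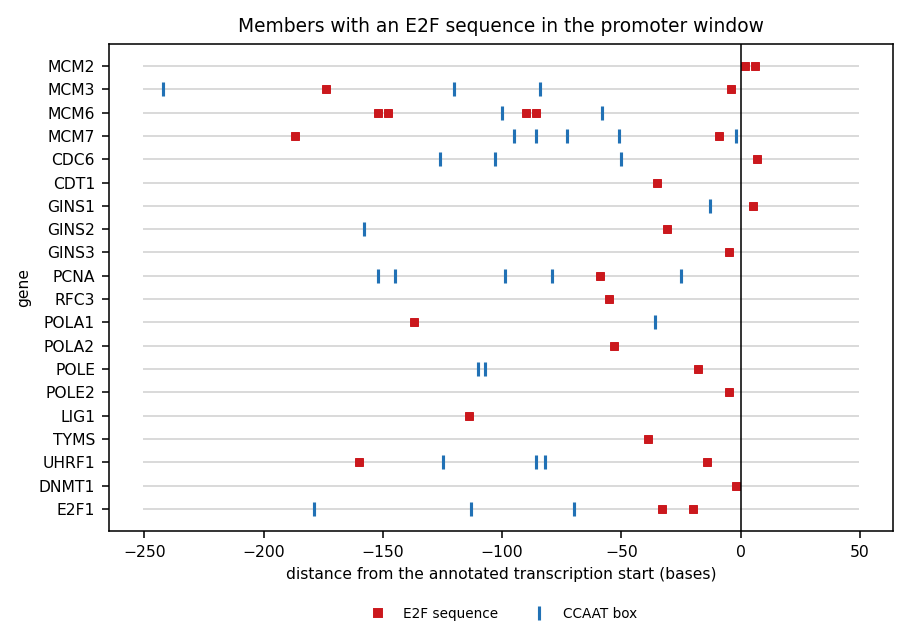
Position of E2F sequences (squares) and CCAAT boxes (bars) in the promoter windows of the 20 members with an E2F sequence; the x axis is the distance in bases from the annotated transcription start, negative before it. Of the 20 genes, 14 have an E2F sequence wholly before the start, those of DNMT1, GINS3 and POLE2 run across it, and those of MCM2, CDC6 and GINS1 lie just after it. All annotated starts of a gene are overlaid on a single line, so sites on a line can belong to different windows, as for UHRF1 and PCNA.

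The arrays did not sort by their labels. Over 16439 genes that are not members, replicate 1 of HK-2 had r = 0.983 with replicate 2 of RPTEC/TERT1, and replicate 2 of HK-2 had r = 0.975 with replicate 1 of RPTEC/TERT1. Within a label r was 0.849 (HK-2) and 0.835 (RPTEC/TERT1). The points of these correlations are genes and not independent samples. The replicate number goes with the scan day. With 1 array a slide, an effect of the slide and one of the array cannot be told apart. The 75th percentile of the processed signal was 393 to 748, 59.2 to 64.9% of the 43118 spots were well above background, and no member's probe was saturated. Whether the labels of 2 arrays were exchanged was not tested. Names below are those of the labels, and every difference between HK-2 and RPTEC/TERT1, with its test, is one between arrays with these labels and holds for the cell lines only if the labels are right.

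The replication genes were high on the second HK-2 array (replicate 2) and the first RPTEC/TERT1 array (replicate 1), and low on the other 2. Of the 34 members with a value on all 4 arrays, 33 were higher on both of those arrays than on both others, against 33.2% of 16473 genes, and POLE was the exception. MCM6, GINS1, GINS3, RFC4 and TYMS had no value on HK-2 replicate 2, since their only spot there was marked as an outlier. With outlier spots kept, 38 of 39 members had this order. Detection went the same way: the RPTEC/TERT1 arrays had 39 members well above background in replicate 1 and 29 in replicate 2, and the HK-2 arrays had 32 of 39 in replicate 1 and 34 of the 34 with a value in replicate 2. The range over the 4 arrays had a median of 3.69 on the log2 scale among the members and 1.05 among all genes tested.

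**Figure D2:**
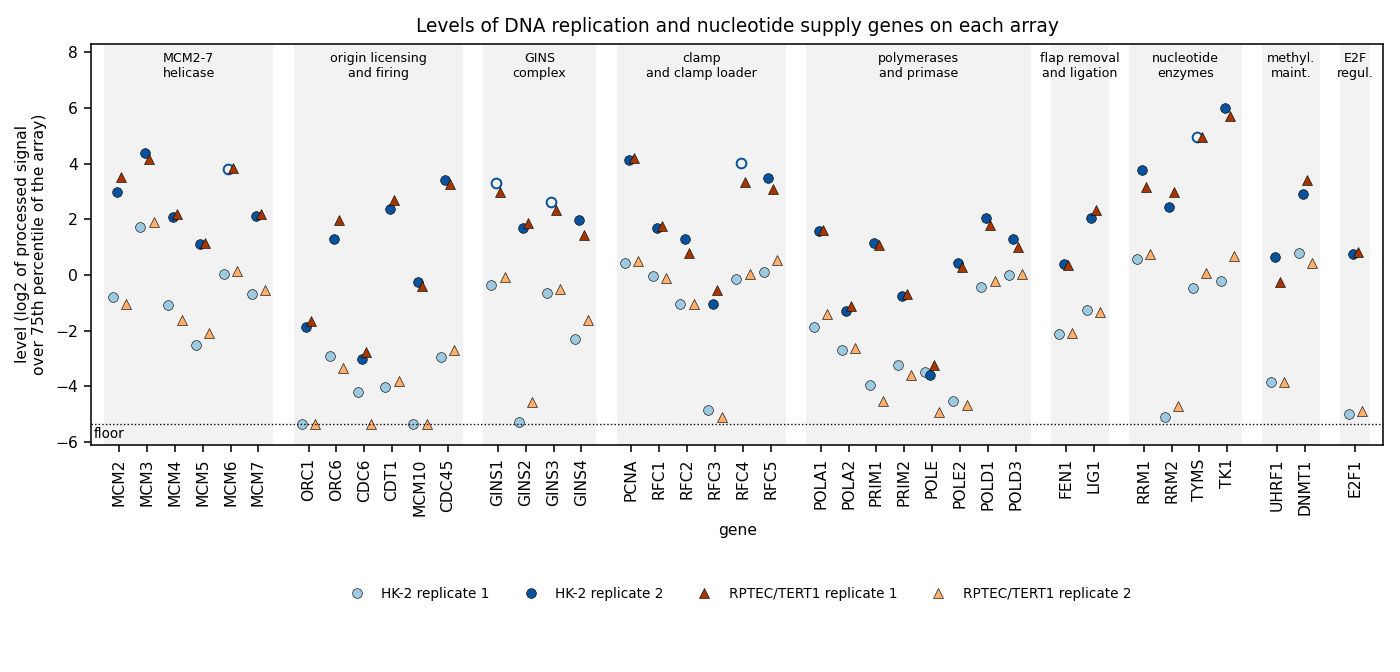
Level of each of the 39 genes on each of the 4 arrays, grouped by complex; circles are arrays labelled HK-2, triangles arrays labelled RPTEC/TERT1, and dark symbols the HK-2 array of replicate 2 and the RPTEC/TERT1 array of replicate 1. The y axis is log2 of the processed signal over the array's 75th percentile, open circles are spots marked as outliers and the dotted line is the floor at -5.37. Dark symbols lie above light ones for every gene but POLE.

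The MCM2-7 helicase, the ring that unwinds DNA at the fork, was lower on HK-2 than on RPTEC/TERT1 in replicate 1 for 6 of 6 subunits and higher in replicate 2 for 5 of the 5 with a value. The median differences were -3.47 and 3.20 on the log2 scale. MCM2 was at -0.81 and 3.00 on HK-2 replicates 1 and 2 and at 3.52 and -1.03 on RPTEC/TERT1 replicates 1 and 2. Its level on RPTEC/TERT1 was thus 20.1-fold that on HK-2 in replicate 1, and its level on HK-2 was 16.3-fold that on RPTEC/TERT1 in replicate 2. MCM2 had the widest range of the subunits and MCM3 the narrowest. MCM3 was at 1.73 and 4.38 on the HK-2 arrays and at 4.16 and 1.89 on the RPTEC/TERT1 arrays. No subunit with a value differed by less than 2-fold within a replicate. Of all genes, 16.6% were lower on HK-2 by over 2-fold in replicate 1 and 15.9% higher in replicate 2. MCM4, MCM5 and MCM7 had differences of -3.26, -3.67 and -2.86 in replicate 1 and of 3.70, 3.20 and 2.68 in replicate 2. MCM6 was at 3.83 and 0.14 on RPTEC/TERT1 and at 0.05 on HK-2 replicate 1, and its outlier spot on the other HK-2 array read 3.80. MCM7 is the mean of probes at chr7:99690520-99690579 and chr7:99697277-99697336 (GRCh37), which read 1.87 and -3.24 on HK-2 replicate 1 but were both higher on the array labelled HK-2 replicate 2 and on that labelled RPTEC/TERT1 replicate 1 than on the other 2.

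Origin licensing and firing showed some of the widest differences, with medians of -4.93 in replicate 1 and 4.86 in replicate 2. Each of the 6 genes was lower on HK-2 by over 2-fold in replicate 1 (16.6% of all genes) and higher in replicate 2 (15.9%). CDT1, the loader of the helicase that geminin holds in check, had the widest range (probe at chr16:88875606-88875665, GRCh37). It was at -4.04 and 2.36 on HK-2 replicates 1 and 2 and at 2.67 and -3.82 on RPTEC/TERT1 replicates 1 and 2, a difference of 105-fold in replicate 1 and 72.4-fold in replicate 2. Both low arrays were well above background for CDT1, so these folds are measured on both sides. CDC6, the ATPase that brings CDT1 and the MCM ring to the origin, had the narrowest range, with levels of -4.22 and -3.01 on HK-2 and of -2.78 and -5.37 on RPTEC/TERT1. It was not well above background on RPTEC/TERT1 replicate 2, so the 5.14-fold difference in replicate 2 is a lower bound, and in replicate 1 the difference was 2.71-fold. CDC45, which joins GINS at the helicase, differed by -6.20 in replicate 1 and 6.08 in replicate 2. ORC6, the smallest subunit of the origin recognition complex, differed by -4.88 and 4.63. ORC1, its largest subunit, and MCM10, which acts as the helicase starts, were well above background nowhere but on the 2 arrays where the members were high. MCM10 was at least 31.3-fold higher on RPTEC/TERT1 in replicate 1 and at least 34.3-fold higher on HK-2 in replicate 2.

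The 4 GINS subunits, which bind CDC45 and the MCM ring, were each lower on HK-2 in replicate 1, with a median of -3.55. GINS2 had the widest range in the complex. Its levels were -5.29 and 1.67 on HK-2 replicates 1 and 2 and 1.87 and -4.58 on RPTEC/TERT1 replicates 1 and 2. It was not well above background on either low array, so the differences were at least 143-fold in replicate 1 and at least 75.8-fold in replicate 2. GINS4 was at -2.32 and 1.96 on HK-2 and at 1.43 and -1.64 on RPTEC/TERT1. GINS1 was at 2.99 and -0.08 on RPTEC/TERT1 replicates 1 and 2 and at -0.37 on HK-2 replicate 1. GINS3 was at 2.35, -0.50 and -0.67 on the same arrays. On the other HK-2 array the outlier spots of GINS1 and GINS3 read 3.31 and 2.61, beside the higher of their RPTEC/TERT1 levels.

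PCNA, the clamp that holds polymerases on DNA, was at 0.44 and 4.11 on HK-2 replicates 1 and 2 and at 4.19 and 0.51 on RPTEC/TERT1 replicates 1 and 2. The arrays of like level thus carried different labels. One of its probes was printed 10 times on each array, and the SD over the 5 to 10 spots used was 0.077 to 0.191 on the log2 scale, which is the spread of repeat spots and not of cultures. The gene, a mean of 2 probes, differed by -3.75 in replicate 1 and 3.60 in replicate 2. The subunits of RFC, which opens the clamp and loads it, varied more among themselves. RFC3 ranged widest, with -4.84 and -1.06 on HK-2 and -0.53 and -5.10 on RPTEC/TERT1, and was at background on both low arrays (at least 19.8-fold in replicate 1, at least 16.5-fold in replicate 2). RFC1, the large subunit, ranged least, with -0.05 and 1.70 on HK-2 and 1.74 and -0.13 on RPTEC/TERT1, a difference of 3.45-fold in replicate 1 and 3.53-fold in replicate 2. RFC2 and RFC5 lay between these in replicate 1, with differences of -1.84 and -2.98, and had 2.33 and 2.96 in replicate 2. RFC4 differed by -3.49 in replicate 1, and its outlier spot read 4.01, against 3.34 on the array labelled RPTEC/TERT1 replicate 1.

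The polymerases and primase had smaller median differences than the other complexes, -2.37 in replicate 1 and 2.54 in replicate 2. In replicate 1, 7 of 8 genes were lower on HK-2 by over 2-fold (16.6% of all genes). In replicate 2, 8 of 8 were higher by as much (15.9% of all genes). PRIM1, the catalytic subunit of the primase that lays down RNA primers, ranged widest: -3.94 and 1.16 on HK-2 replicates 1 and 2, 1.06 and -4.54 on RPTEC/TERT1 replicates 1 and 2. That is 32.2-fold in replicate 1 and, with 1 outlier spot kept, at least 45.7-fold in replicate 2 (51.8-fold without it). POLD3, an accessory subunit of polymerase delta, ranged least and differed by only 2.04-fold and 2.39-fold. Its levels were -0.02 and 1.29 on HK-2 and 1.01 and 0.03 on RPTEC/TERT1. POLA1, the catalytic subunit of polymerase alpha, differed by -3.47 and 3.01, POLA2 by -1.60 and 1.35, and PRIM2 by -2.54 and 2.83. POLD1, the catalytic subunit of polymerase delta, differed by -2.20 and 2.25. POLE2 was at background on both low arrays and differed by at least 28.4-fold and at least 34.8-fold.

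POLE, the catalytic subunit of polymerase epsilon, was the member that did not follow the others, and it is described for that reason, after its values were seen. As a gene it was at -3.47 and -3.61 on HK-2 replicates 1 and 2 and at -3.23 and -4.93 on RPTEC/TERT1 replicates 1 and 2. Its probes disagreed. The probe at chr12:133202232-133202291 (GRCh37, minus strand) read -4.99 and -2.17 on HK-2 and -1.97 and -4.49 on RPTEC/TERT1, the order of the other members. The probe at chr12:133233948-133234007 read -1.96 and -5.05 on HK-2 and -4.48 and -5.37 on RPTEC/TERT1, highest on HK-2 replicate 1 and not well above background on either RPTEC/TERT1 array. The probes thus differed in where HK-2 replicate 1 lay, highest for one and not well above background for the other. Both probes were higher on HK-2 in replicate 2 and higher on RPTEC/TERT1 replicate 1 than on its replicate 2. The gene's value is the mean of both, and which follows the transcript was not tested.

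FEN1, the nuclease that trims flaps from Okazaki fragments, was at -2.12 and 0.41 on HK-2 replicates 1 and 2 and at 0.36 and -2.07 on RPTEC/TERT1 replicates 1 and 2. LIG1, the ligase that seals the trimmed ends, was at -1.25 and 2.03 on HK-2 and at 2.33 and -1.33 on RPTEC/TERT1. In both genes the arrays that carry the same replicate number lay far apart (5.59-fold and 5.56-fold for FEN1, 12.0-fold and 10.3-fold for LIG1).

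The nucleotide enzymes held the member with the widest difference, RRM2, and had a median of -5.68 in replicate 1 and of 5.34 in replicate 2 over the 3 with a value. RRM2, the regulated small subunit of ribonucleotide reductase, which makes deoxyribonucleotides, was measured by a probe at chr2:10270487-10270546 (GRCh37). It was at -5.11 and 2.44 on HK-2 replicates 1 and 2 and at 2.97 and -4.71 on RPTEC/TERT1 replicates 1 and 2. Neither low array showed RRM2 well above background, so these are differences of at least 270-fold in replicate 1 and at least 143-fold in replicate 2. RRM1, the large subunit of the same enzyme, differed far less, 6.00-fold and 8.14-fold, with 0.58 and 3.76 on HK-2 and 3.17 and 0.74 on RPTEC/TERT1. TYMS, which makes thymidylate from deoxyuridylate, was at 4.94 and 0.08 on RPTEC/TERT1 replicates 1 and 2 and at -0.49 on HK-2 replicate 1. This is 43.0-fold in replicate 1, and the outlier spot on the other HK-2 array read 4.96. TK1, the thymidine kinase of the salvage route, was at -0.22 and 6.00 on HK-2 and at 5.71 and 0.66 on RPTEC/TERT1, or 61.1-fold in replicate 1 and 40.4-fold in replicate 2.

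UHRF1, which reads hemimethylated DNA behind the fork and recruits DNMT1, was at -3.84 and 0.64 on HK-2 replicates 1 and 2 and at -0.27 and -3.84 on RPTEC/TERT1 replicates 1 and 2. These are means of 2 probes, which read 2.04 and -0.76 on HK-2 replicate 2 and 1.79 and -2.33 on RPTEC/TERT1 replicate 1. The dimmer probe was not well above background on RPTEC/TERT1 replicate 2. DNMT1, which copies the methylation pattern onto the new strand, was at 0.79 and 2.90 on HK-2 and at 3.40 and 0.42 on RPTEC/TERT1. E2F1 itself (probe at chr20:32263989-32264048, GRCh37) was at -5.00 and 0.74 on HK-2 and at 0.84 and -4.91 on RPTEC/TERT1. Its levels on the low arrays were not above background, which gives a difference of at least 50.1-fold in replicate 1 with 1 outlier spot kept (57.3-fold without it) and of at least 5.64 on the log2 scale in replicate 2. Within the members, those with an E2F sequence in the promoter window had a median difference of -3.58 in replicate 1 (n = 20) and those without one of -3.49 (n = 15).

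Within replicate 1, 38 of 39 members were lower on HK-2 than on RPTEC/TERT1 by over 2-fold, against 16.6% of 17234 genes, and none was higher, against 20.1%. Within replicate 2, 34 of 34 members were higher on HK-2 by over 2-fold, against 15.9% of 17211 genes, and none was lower, against 17.9%. The median over the members was -3.57 in replicate 1, where that over all genes was 0.12, and 3.43 in replicate 2, where that over all genes was -0.06. Each is a difference of 1 array and 1 array and has no test. With normexp background correction in place of the processed signal, the replicate 1 median was -1.90 while that of all genes was 1.02. Of the members, 27 were then lower by over 2-fold. The share of all genes under normexp is not given here, so that count cannot be judged against it. The 16.6% above is from the processed signal and cannot stand in for it. With normexp, CDC6, MCM10, ORC1, POLA2, POLE, PRIM2 and RFC3 were above 0. Of these 7, CDC6, ORC1 and POLE also lay above the median of all genes. The median of each complex stayed below 0 there, from -0.61 for the polymerases and -0.95 for origin licensing to -3.95 for the nucleotide enzymes, and E2F1 was at -1.06.

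**Figure D3:**
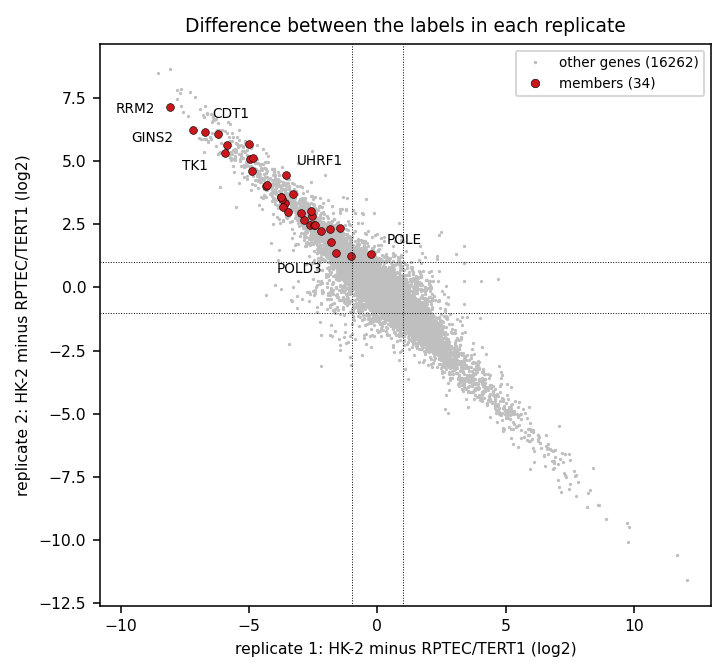
HK-2 minus RPTEC/TERT1 (log2) in replicate 1 (x axis) and in replicate 2 (y axis) for the 34 members with a value on all 4 arrays (red) and other genes (grey); dotted lines mark 2-fold. All 34 members lie left of 0 and above 0, from POLE at -0.25 and 1.33 to RRM2 at -8.08 and 7.16.

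Between replicates of the same label the members differed as much. The HK-2 arrays differed by a median of 3.48 (replicate 2 minus replicate 1), with 33 of 34 members higher by over 2-fold on replicate 2 against 16.1% of 17382 genes, and none lower by as much against 18.1%. With normexp this median was 1.71, that of all genes -1.11, and 23 members were higher by over 2-fold. Here too the share of all genes under normexp is not given, and the 16.1% above, from the processed signal, cannot stand in for it. The RPTEC/TERT1 arrays differed by -3.30, with 38 of 39 members lower by over 2-fold on replicate 2 against 18.7% of 17061 genes, and none higher by as much against 22.2%. Between arrays of different label and different replicate number the members were close. HK-2 replicate 1 minus RPTEC/TERT1 replicate 2 had a median of -0.09 over 32 members, 2 of them higher by over 2-fold (CDC6 and POLE, named after their values were seen) against 3.35% of 16108 genes, and none lower by as much against 3.51%. HK-2 replicate 2 minus RPTEC/TERT1 replicate 1 had a median of -0.04, with 0 of 34 members past 2-fold in either direction against 4.38% of 17043 genes higher and 3.54% lower, and values from -0.67 (ORC6) to 0.91 (UHRF1).

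The comparison the labels give, HK-2 against RPTEC/TERT1, called no member. With limma over 16713 genes, 0 genes had an adjusted p under 0.05 (0.0%) and 24 had an unadjusted p under 0.05, none of them a member, and the adjusted p of each member was 1. All 34 members with 4 values had overlapping arrays between the labels, while 7.18% of all genes did not overlap. PCNA averaged 2.27 ± 2.60 (SD, n = 2) on HK-2 and 2.35 ± 2.60 (SD, n = 2) on RPTEC/TERT1. RRM2 averaged -1.33 ± 5.34 and -0.87 ± 5.43, and E2F1 -2.13 ± 4.06 and -2.03 ± 4.06 (SD, n = 2 each). Over the 34 members the difference lay between -0.46 ± 3.70 (SE, RRM2) and 0.54 ± 0.72 (SE, POLE), with a median of -0.06. The standard errors of the members had a median of 1.73, against 0.57 over all genes, so differences of several fold between arrays with these labels were not detectable here. With replicate 1 of HK-2 left out the median over the members was 1.71, and with its replicate 2 left out it was -1.84. The same for RPTEC/TERT1 gave 1.46 and -1.91, so each array decides the direction. For the 5 members without a value on HK-2 replicate 2, HK-2 is replicate 1 alone and the fit gave -1.59 (GINS3) to -2.99 (TYMS).

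**Figure D4:**
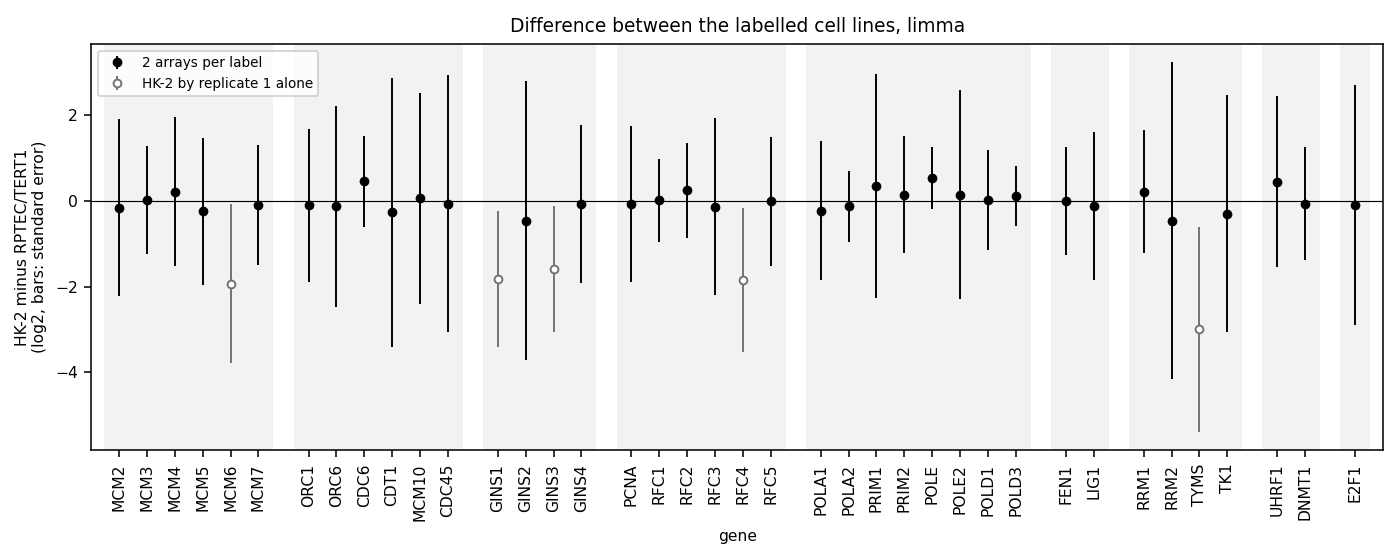
HK-2 minus RPTEC/TERT1 (log2) from limma for each of the 39 genes, with the standard error as bars; open symbols are the 5 genes for which HK-2 rests on replicate 1 alone. Filled symbols lie between -0.46 and 0.54, each with a standard error wider than its distance from 0.

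Other genes of DNA replication, listed apart from the members, went the same way less evenly. Of 40, 29 were lower on HK-2 by over 2-fold in replicate 1 (16.6% of all genes), none was higher (20.1%) and 11 were within 2-fold, with a median of -1.82. In replicate 2, 29 of 39 were higher (15.9% of all genes), 1 was lower (17.9%) and the median was 1.83. The widest ranges were those of DTL, which directs CDT1 to destruction, TOP2A, the topoisomerase that untangles copied DNA, and KIAA0101, now PCLAF, a partner of PCNA. DTL was at -5.37, the floor, and 2.37 on HK-2 replicates 1 and 2 and at 1.94 and the floor on RPTEC/TERT1. TOP2A was at -5.36 and 2.25 on HK-2 replicates 1 and 2 and at 2.29 and -4.96 on RPTEC/TERT1. KIAA0101 was at -2.70 and 3.52 on HK-2 and at 2.92 and -1.59 on RPTEC/TERT1. At the other end, CHTF8, a small subunit of an alternative clamp loader, was at 0.91 to 0.98 on the 4 arrays. POLE4, the histone-fold subunit of polymerase epsilon, was at 2.84 to 3.02.

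Other enzymes of nucleotide metabolism had smaller medians than the members. Of 31 compared in replicate 1, 13 were lower on HK-2 by over 2-fold (16.6% of all genes), 5 were higher (20.1%, so near the share of all genes) and 13 were within 2-fold, with a median of -0.85. In replicate 2, 15 of 30 were higher (15.9% of all genes), 2 were lower (17.9%) and the median was 1.01. MTHFD2, a mitochondrial enzyme of one-carbon metabolism, was at 0.07 and 3.35 on HK-2 replicates 1 and 2 and at 2.99 and -0.07 on RPTEC/TERT1. PPAT, which starts purine synthesis, was at -1.37 and 1.43 on HK-2 and at 1.50 and -1.17 on RPTEC/TERT1. DCK, the deoxycytidine kinase, was at -2.23 and -0.18 on HK-2 and at -0.25 and -3.02 on RPTEC/TERT1. GUK1, the guanylate kinase, and IMPDH2, which makes the precursor of GMP, held nearly one level, 2.91 to 3.02 and 2.56 to 2.73. TK2, the mitochondrial thymidine kinase, ran against TK1 and is named for that after its values were seen: it was at -0.42 and -2.51 on HK-2 and at -2.45 and -1.11 on RPTEC/TERT1.

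Among 13 E2F and pocket protein genes, 8 were lower on HK-2 by over 2-fold in replicate 1 (16.6% of all genes) and 5 were within 2-fold, with a median of -1.19, and 7 were higher in replicate 2 (15.9%), with a median of 1.21; with normexp the replicate 1 median was 0.33, below the 1.02 of all genes. E2F2, an activator like E2F1, was at -5.37 and 1.56 on HK-2 replicates 1 and 2 and at 1.00 and -5.07 on RPTEC/TERT1. RBL1, the pocket protein p107, was at -5.37 and -1.44 on HK-2 and at -1.37 and -4.77 on RPTEC/TERT1. CDKN2A, which encodes the CDK inhibitor p16, was at 0.29 and 4.17 on HK-2 and at 4.04 and 0.20 on RPTEC/TERT1, high where the replication genes were high. RB1 and RBL2, the pocket protein p130, had the narrowest ranges, at 1.43 to 1.97 and -0.34 to 0.07.

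**Figure D5:**
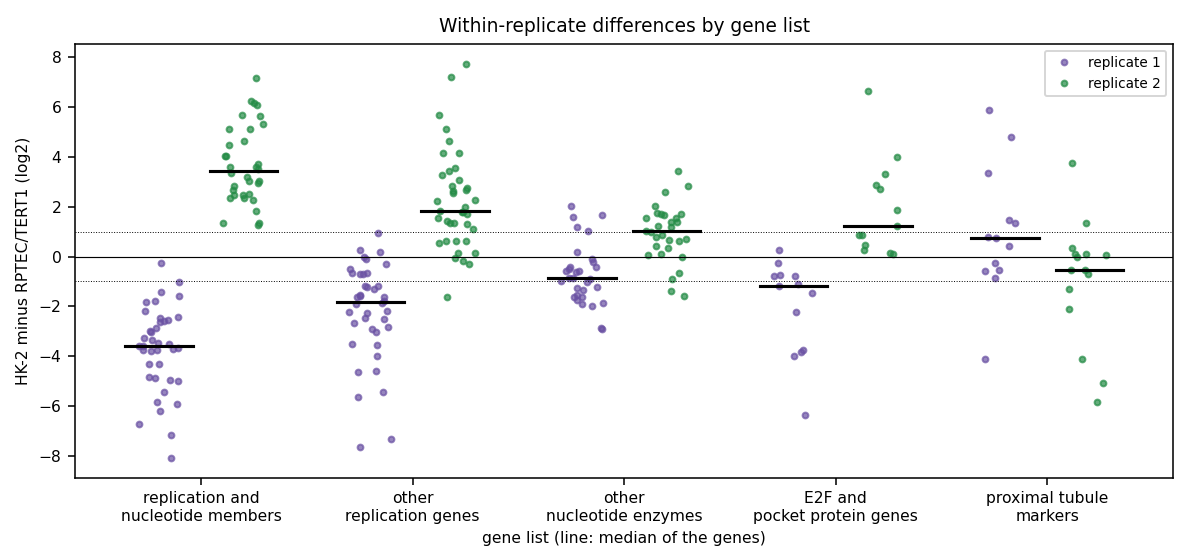
HK-2 minus RPTEC/TERT1 (log2) in replicate 1 and replicate 2 for each gene of 5 lists, with the median of each as a line and 2-fold as dotted lines; the median of all genes is 0.12 in replicate 1 and -0.06 in replicate 2. The members have medians of -3.57 and 3.43, the other lists of replication, nucleotide and E2F genes lie nearer to 0, and the proximal tubule markers run from below to above 0.

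Markers of the labelled tissue were mixed. Of 13 proximal tubule markers compared in replicate 1, 5 were higher on HK-2 by over 2-fold, 1 was lower and 7 were within 2-fold, and of 15 in replicate 2, 2 were higher, 5 lower and 8 within 2-fold. The 9 that were well above background on all 4 arrays had medians of -0.26 and -0.03. Of 20 proximal tubule markers, 13, 12, 9 and 13 passed background on the HK-2 arrays of replicates 1 and 2 and the RPTEC/TERT1 arrays of replicates 1 and 2, in that order, and their summed signal was 28.8, 8.46, 13.3 and 23.3 times the 75th percentile of the array. CUBN, SLC22A6, SLC5A1, ALPL and HNF4A were not above background on any array. ANPEP, a brush border peptidase, was at 0.49 and the floor on HK-2 replicates 1 and 2 and at the floor and 0.47 on RPTEC/TERT1, low where the replication genes were high. CDH6, a proximal tubule cadherin, had the opposite order, with -3.26 and 0.27 on HK-2 and 0.86 and -3.49 on RPTEC/TERT1. Of 7 fibroblast markers 4 were never above background, and the list's sum was 0.178 to 1.97 times the 75th percentile, highest on the 2 arrays where the members were high. DCN and LUM, matrix proteoglycans, carried this sum, with differences of -4.50 and -5.07 in replicate 1 and 4.65 and 5.60 in replicate 2. Neither was well above background on the low arrays, so the sizes of these differences are lower bounds. With normexp the median of the 3 fibroblast markers compared was 0.18 in replicate 1 (-0.83 relative to all genes) and 2.57 in replicate 2. COL1A1 differed by -0.65 and 0.73, and COL1A2, COL3A1, PDGFRA and PDGFRB were never above background. The leukocyte sum was 1.04 and 1.49 on HK-2 replicates 1 and 2 and 1.98 and 0.941 on RPTEC/TERT1, also higher on those arrays. CD68 carried most of it, with levels of -0.49 and 0.15 on HK-2 and of 0.62 and -0.54 on RPTEC/TERT1. CD14 had the same order. PTPRC and ITGAM did not: both were lower on HK-2 replicate 2 (-3.62 and -4.36) than on HK-2 replicate 1 (-3.39 and -3.59). Of 5 endothelial, 6 leukocyte and 6 other tubule segment markers, 3, 1 and 4 were never above background, with sums of at most 0.419 for the endothelial and 1.20 for the other tubule list. The part of these markers in the levels of the replication genes was not tested.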

How the data were processed

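RNA of HPTCs was labelled with Cy3 and hybridised to Agilent Human GE 4x44K v2 arrays. For RNA isolation the labels give the RNeasy kit and the methods the innuPREP kit. The authors deposited the intensities that Agilent Feature Extraction (9.5.3.1) gave for each spot, with background subtracted and no scaling between arrays, and a table of log2 values whose scale and centring are not given in the sources used here and whose direction is that of the intensities (medians 8.31, 7.04, 6.67 and 6.65 on HK-2 replicates 1 and 2 and RPTEC/TERT1 replicates 1 and 2). The table served as an alternative. The number of arrays limits precision.

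Control and outlier spots were removed and signals were divided by the array's 75th percentile, floored at 0.0242 of it and taken to log2. Spots were averaged per probe. A gene is the mean of its probes well above background on at least 1 array, using those with values on the most arrays. The label comparison, HK-2 minus RPTEC/TERT1, used limma 3.58.1 (R 4.3.3) and no block, over genes well above background on at least 2 arrays, with Benjamini-Hochberg adjustment at 0.05. The step was tested on simulated data whose spread between arrays was far smaller than that of the members here. Their median SD was 2.46 between HK-2 arrays and 2.33 between RPTEC/TERT1 arrays. That test therefore does not show what could be detected among the members. Differences of 1 array and 1 array were counted past 2-fold among genes well above background on either array.

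Groups, replicate numbers, doses and times came from the labels. Arrays with the same replicate number deviated from their label's mean with a correlation of -0.807 across genes, so the numbers were not taken to pair the arrays. Members and lists were chosen with earlier results of these data known. Values on every array are given for the widest and narrowest member of each complex, for E2F1, PCNA, RRM2 and TYMS, for every member of complexes of up to 4 genes, and for the 3 widest and 2 narrowest genes of the other lists. All 39 symbols are in the RefSeq gene table, and 46 of 47 member probes match a transcript there. Probe positions are those of the files (GRCh37).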

Additional observations from a re-analysis of the deposited data

Results flagged for a closer look

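The difference between the labels ran opposite ways in the replicates: the median over the members of HK-2 minus RPTEC/TERT1 was -3.57 in replicate 1 and 3.43 in replicate 2 on the log2 scale. Every one of the 34 members with values on all 4 arrays was below 0 in replicate 1 and above 0 in replicate 2. The difference between the replicates was not tested, since each value rests on 1 array per label.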

How the results depend on the processing

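Across 15 alternatives limma called 0 genes and 0 members, with 4 to 246 genes and 0 to 4 members at an unadjusted p under 0.05. The fit with a replicate block made 0 calls and left 16 genes and 3 members at that unadjusted p, against 24 and 0 without it. With the crossed pairing as block, chosen after seeing the data, there were 0 calls and 195 genes at an unadjusted p under 0.05. Leaving out each array in turn gave 0 calls, and the median over members of HK-2 minus RPTEC/TERT1 (-0.08 over 39 members) ran from -1.91 to 1.71. This median was 0.62 with normexp, 0.36 with the deposited log2 values and -0.02 with normexp after 8 spots of bright background on HK-2 replicate 1, and none on the other arrays, were left out, an alternative chosen after seeing the data. The replicate 1 median was -1.90, -2.20 and -2.77 under these, and -3.66 to -3.12 under the others. In replicate 2 it stayed between 2.72 and 3.50. The HK-2 difference between replicates was 1.71 with normexp and 2.00 with the deposited values, against 3.48. The cause was not tested. The difference between the labels changed sign for 26 members under alternatives with all 4 arrays, none of them called. With 2 arrays a label and signals near background on the low arrays, folds of the dimmest members are bounds only.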
